A study of Homo sapiens with 14 samples.

Results

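The comparison described here is that of cultures taken through a neural crest induction with the high dose of CHIR99021 in the presence of SB431542 (SB4) with cultures induced at the same dose without it. It rests on 4 of the 14 libraries of the series, 2 per group, chosen by the labels of the libraries alone. All cultures came from WA01 (H1), 1 established human embryonic stem cell line. The high Wnt + SB4 group received 10 µM CHIR99021, which blocks the kinase GSK3 and so activates canonical Wnt signaling, from hour 0 to hour 72, and 10 µM SB4 from hour 0 to hour 120. The high Wnt group received the same CHIR99021 and no SB4. For comparison, the low Wnt + SB4 and low Wnt groups differed from these in the CHIR99021 dose of 3 µM, and a high Wnt + TGFB group received TGF-beta 1 at 5 ng/µL, the unit the labels state, over the same hours in place of SB4. All 5 groups were grown on Matrigel in a DMEM/F12 medium supplemented with B27 and BSA and were harvested on day 5. The tests also drew on the libraries of low Wnt + TGFB and of uninduced cells (hESC) for the spread between replicates. Low Wnt + TGFB received 3 µM CHIR99021 and the same TGF-beta 1 and was harvested on day 5. The hESC group received none of these agents. Whether both libraries of a group stem from separate cultures is not stated in the labels. The p-values rest on the spread between the libraries at hand, which may be of technical origin.

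SB4 blocks the kinase activity of the type I receptors TGFBR1, ACVR1B and ACVR1C, through which TGF-beta, activin and nodal signal. The activated receptors phosphorylate SMAD2 and SMAD3, which enter the nucleus with SMAD4 and switch on genes for matrix proteins, contractile proteins and a set of inhibitors that dampen the pathway itself. Receptors for bone morphogenetic proteins act through other SMADs and are not targets of SB4. In the embryo, nodal and Wnt signaling together specify mesoderm, while Wnt signaling at the posterior end of the axis maintains progenitors of spinal cord and paraxial mesoderm and switches on posterior HOX genes.

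The fragments assigned to genes numbered 15496210 and 17424753 in high Wnt + SB4 and 12396451 and 14634002 in high Wnt. Levels are given as CPM, counts relative to the TMM-scaled library size, in the order replicate 1, replicate 2. A count of 0 in 1 of these libraries allows up to 0.167 to 0.249 CPM. Fold changes are log2 values of high Wnt + SB4 over high Wnt with their standard error (SE), and a gene is said to rise or fall when its Benjamini-Hochberg adjusted p in the edgeR quasi-likelihood test was under 0.05. Across genes, log2 CPM correlated at 0.991 between the high Wnt + SB4 libraries, at 0.989 between the high Wnt libraries, and at 0.974 to 0.977 between libraries of different groups. The pluripotency markers POU5F1 and NANOG were at or near 0, but the list of 18 pluripotency genes, SOX2 among them, was not. That list summed to 2085 and 1830 CPM in high Wnt + SB4, against 1982 and 1755 CPM in high Wnt. POU5F1 had 0.191 and 0 CPM in high Wnt + SB4, against 0.166 and 0.0688 CPM in high Wnt, and NANOG did not pass 0.0635 CPM in any of the 4 libraries. Of the neural crest markers SOX10 was low, and FOXD3 and TFAP2A were near 0. SOX10 had 1.14 and 0.669 CPM in high Wnt + SB4, against 1.66 and 1.44 CPM in high Wnt, FOXD3 0.191 and 0.0557 CPM in high Wnt + SB4, against 0.166 and 0.206 CPM in high Wnt, and TFAP2A 0 and 0.279 CPM in high Wnt + SB4, against 0.166 and 0.0688 CPM in high Wnt. The neural plate border gene PAX3 had 237 and 238 CPM in high Wnt + SB4, against 177 and 169 CPM in high Wnt. Border genes, SNAI2, SOX9 and B3GAT1 were detected in all 4 libraries, but none of these is particular to neural crest. The levels of SOX10, FOXD3 and TFAP2A went against the label of neural crest cells, and the cultures are named here by their treatment.

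SB4 at the high dose was followed by broad change. Of 16149 genes tested 1605 rose (9.94%) and 1871 fell (11.6%), and 358 of those that rose and 604 of those that fell differed at least by a log2 fold change of 1. Leaving out any 1 of the 4 libraries gave 748 to 1039 rises and 1186 to 1385 falls. The median log2 fold change over all genes tested was 0.00. Genes were ranked where the higher group averaged 10 CPM or more and no library of one group lay within the range of the other. The 12 largest falls were LEFTY2, HOXA10, HOXD9, JPH2, PAPPA, ACTC1, IL32, ACTA1, PDGFB, ETS1, HOXC10 and THBS1. The 12 largest rises were PCDH8, PAX6, GDF10, ONECUT2, MARCH4, ST8SIA3, KLHDC8A, RHBDL3, HES3, TRIL, GPRIN1 and NTRK2. The falls held the nodal inhibitor LEFTY2, the sarcomeric actins ACTC1 and ACTA1, and HOXA10, HOXC10 and HOXD9. The rises held the transcription factors PAX6, ONECUT2 and HES3 and the neurotrophin receptor NTRK2. In messenger RNA of whole cultures, fewer cells of a type and less RNA per cell cannot be told apart, and this holds for every result that follows.

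**Figure D1:**
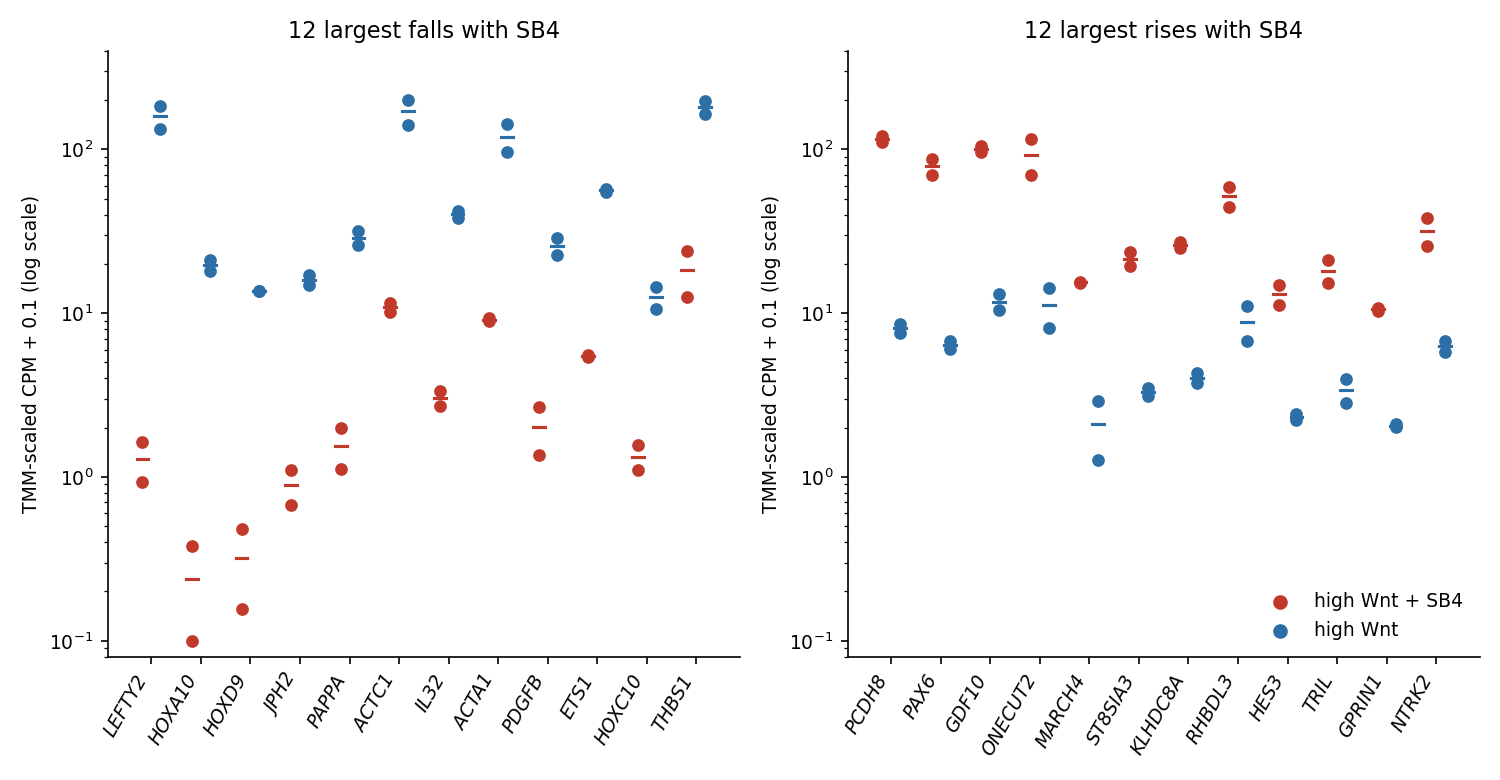
Level of the 12 genes with the largest falls and the 12 with the largest rises in each library, on a log axis of CPM with 0.1 added, with high Wnt + SB4 in red and high Wnt in blue; points are libraries and short lines are group means. For each of these genes both high Wnt + SB4 libraries lie on the same side of both high Wnt libraries, which was a condition of the ranking.

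Among the ligands of the pathway none of 10 tested rose and 3 fell, with a median log2 fold change of -0.74. These counts, and those of every list that follows for SB4 at high Wnt, are to be read against 9.94% higher and 11.6% lower over all genes. TGFB1 (chr19:41330531-41353933), which encodes the ligand TGF-beta 1, had 16.4 and 15.5 CPM in high Wnt + SB4, against 108 and 82.6 CPM in high Wnt (-2.58 ± 0.18 SE, edgeR adjusted p = 5.21e-08). The groups did not overlap, and both high Wnt + SB4 libraries lay far below both high Wnt libraries. TGFB2 had 40.5 and 34.2 CPM in high Wnt + SB4, against 83.4 and 75.9 CPM in high Wnt (-1.09 ± 0.16 SE, edgeR adjusted p = 0.000122). NODAL, the ligand of early mesoderm, had 0 counts in both high Wnt + SB4 libraries, against 38 counts over both high Wnt libraries. Against a floor of 3 counts over the group it was at least 16.1-fold lower, and the median of the list is the same with NODAL at this bound.

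For TGFBR1 and ACVR1B, which SB4 inhibits, no change in messenger RNA passed the test. TGFBR1 had 179.5 and 195 CPM in high Wnt + SB4, against 161 and 181 CPM in high Wnt (edgeR adjusted p = 0.483), and ACVR1B had 59.7 and 70.1 CPM in high Wnt + SB4, against 55.1 and 64.2 CPM in high Wnt (edgeR adjusted p = 0.512). The groups overlapped for both genes. ACVR1C, the receptor for nodal and related ligands, was low and fell, with 1.84 and 1.67 CPM in high Wnt + SB4, against 4.24 and 4.402 CPM in high Wnt (-1.30 ± 0.30 SE, edgeR adjusted p = 0.00508). Per length, in TPM (transcripts relative to all transcripts of the library), TGFBR1 had 72.5 and 82.1 TPM in high Wnt + SB4, against 62.2 and 74.5 TPM in high Wnt. ACVR1B had 32.8 and 40.03 TPM in high Wnt + SB4, against 28.96 and 35.8 TPM in high Wnt, and ACVR1C had 0.535 and 0.505 TPM in high Wnt + SB4, against 1.18 and 1.3004 TPM in high Wnt. TGFBR1 was thus the most abundant of these 3 receptors per length in all 4 libraries. Of the 9 receptors and co-receptors tested none rose and 3 fell, among them the co-receptor TGFBR3 (-0.46 ± 0.11 SE).

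Of the SMAD transducers, SMAD3 fell by more than SMAD2 did in its fold change. SMAD3 had 122 and 122 CPM in high Wnt + SB4, against 300.4 and 273 CPM in high Wnt (-1.23 ± 0.11 SE, edgeR adjusted p = 8.05e-07). SMAD2 had 108 and 112 CPM in high Wnt + SB4, against 134 and 134 CPM in high Wnt (-0.29 ± 0.09 SE, edgeR adjusted p = 0.0213), and this call was lost when any 1 of the 4 libraries was left out (edgeR adjusted p 0.0704 to 0.123). Among the SMADs of the bone morphogenetic protein pathway, SMAD1 rose (0.50 ± 0.12 SE), a call lost without high Wnt replicate 1 or high Wnt + SB4 replicate 1 (edgeR adjusted p 0.0637 to 0.118), and SMAD5 fell (-0.45 ± 0.11 SE), a call lost without high Wnt replicate 2 (edgeR adjusted p = 0.0546). The shared SMAD4 did not pass.

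The inhibitors that the pathway induces against itself fell in 7 of 16 tested cases and rose in none (median -0.50). LEFTY2 (chr1:225936598-225941383), a secreted antagonist of nodal, had 1.53 and 0.836 CPM in high Wnt + SB4, against 184 and 134 CPM in high Wnt (-7.09 ± 0.25 SE, edgeR adjusted p = 3.84e-11). It had the largest fall among the genes ranked above. Its near-identical neighbour LEFTY1 (chr1:225886282-225889146) had 0.127 and 0.167 CPM in high Wnt + SB4, against 7.73 and 6.603 CPM in high Wnt (-5.51 ± 0.46 SE, edgeR adjusted p = 4.16e-07). Reads that map to several places were not counted, so how the counts divide between LEFTY1 and LEFTY2 is uncertain. SMAD7, which blocks type I receptors from inside the cell, had 7.56 and 5.85 CPM in high Wnt + SB4, against 20.2 and 14.1 CPM in high Wnt (-1.35 ± 0.28 SE, edgeR adjusted p = 0.00237). SKIL, a repressor of SMAD complexes, had 61.6 and 73.7 CPM in high Wnt + SB4, against 148 and 169.6 CPM in high Wnt (-1.23 ± 0.19 SE, edgeR adjusted p = 0.000244). PMEPA1, which sequesters SMAD2 and SMAD3, had 0.191 and 0.167 CPM in high Wnt + SB4, against 2.83 and 3.03 CPM in high Wnt (-3.98 ± 0.45 SE, edgeR adjusted p = 1.25e-05), a level at the floor of these libraries with SB4. BAMBI (-1.25 ± 0.24 SE), a decoy receptor, and FST (-0.70 ± 0.13 SE), which binds activin, fell too. The inhibitory SMAD6, the SKI repressor, TGIF1, TGIF2, SMURF1 and SMURF2 did not pass.

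Of 37 tested genes listed as targets of TGF-beta and of SMAD2 and SMAD3, 29 fell and 1 rose, with a median of -1.35. The list shares members with the lists of inhibitors, collagens and contractile genes, so these counts are not independent of one another. IGFBP3, a binding protein of insulin-like growth factors, had 2.097 and 2.898 CPM in high Wnt + SB4, against 15.3 and 16.99 CPM in high Wnt (-2.68 ± 0.20 SE, edgeR adjusted p = 1.08e-07). TGFBI, a secreted matrix protein, had 254 and 197 CPM in high Wnt + SB4, against 437 and 369.6 CPM in high Wnt (-0.84 ± 0.13 SE, edgeR adjusted p = 0.000254). In both genes the 2 high Wnt + SB4 libraries lay below both high Wnt libraries. The cytokine IL11 (-2.76 ± 0.39 SE) and the transcription factor KLF10 (-1.45 ± 0.17 SE) fell as well. The member that rose was SNAI2, a transcription factor of migrating crest, with 72.4 and 60.9 CPM in high Wnt + SB4, against 46.4 and 37.1 CPM in high Wnt (0.68 ± 0.16 SE, edgeR adjusted p = 0.00654). Its call was lost without high Wnt replicate 2 or without high Wnt + SB4 replicate 1 (edgeR adjusted p 0.0815 to 0.0906). FN1, which encodes fibronectin, had 676 and 794 CPM in high Wnt + SB4, against 782 and 816 CPM in high Wnt, and its groups overlapped (edgeR adjusted p = 0.62).

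Genes of proteins that hold TGF-beta latent in the matrix or release it fell in 5 of 16 tested cases. The falls numbered 2 without high Wnt replicate 2 or high Wnt + SB4 replicate 1, and 3 without high Wnt + SB4 replicate 2. THBS1 (chr15:39581079-39598921), which encodes thrombospondin and can activate latent TGF-beta, had 12.5 and 23.96 CPM in high Wnt + SB4, against 164 and 198 CPM in high Wnt (-3.30 ± 0.44 SE, edgeR adjusted p = 5.49e-05). The replicates with SB4 differed from each other, yet both lay far below the high Wnt libraries. None of the 4 tested LTBP genes or 3 fibrillin genes passed. Of 13 tested genes of nodal response and mesendoderm 5 fell and none rose. Beside NODAL, LEFTY1 and LEFTY2 these were MIXL1 (-2.45 ± 0.49 SE), a homeobox gene of the primitive streak with 0.508 and 0.724 CPM in high Wnt + SB4, against 3.49 and 3.37 CPM in high Wnt, and FOXH1 (-0.91 ± 0.20 SE), the partner of SMAD2 at nodal targets.

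**Figure D2:**
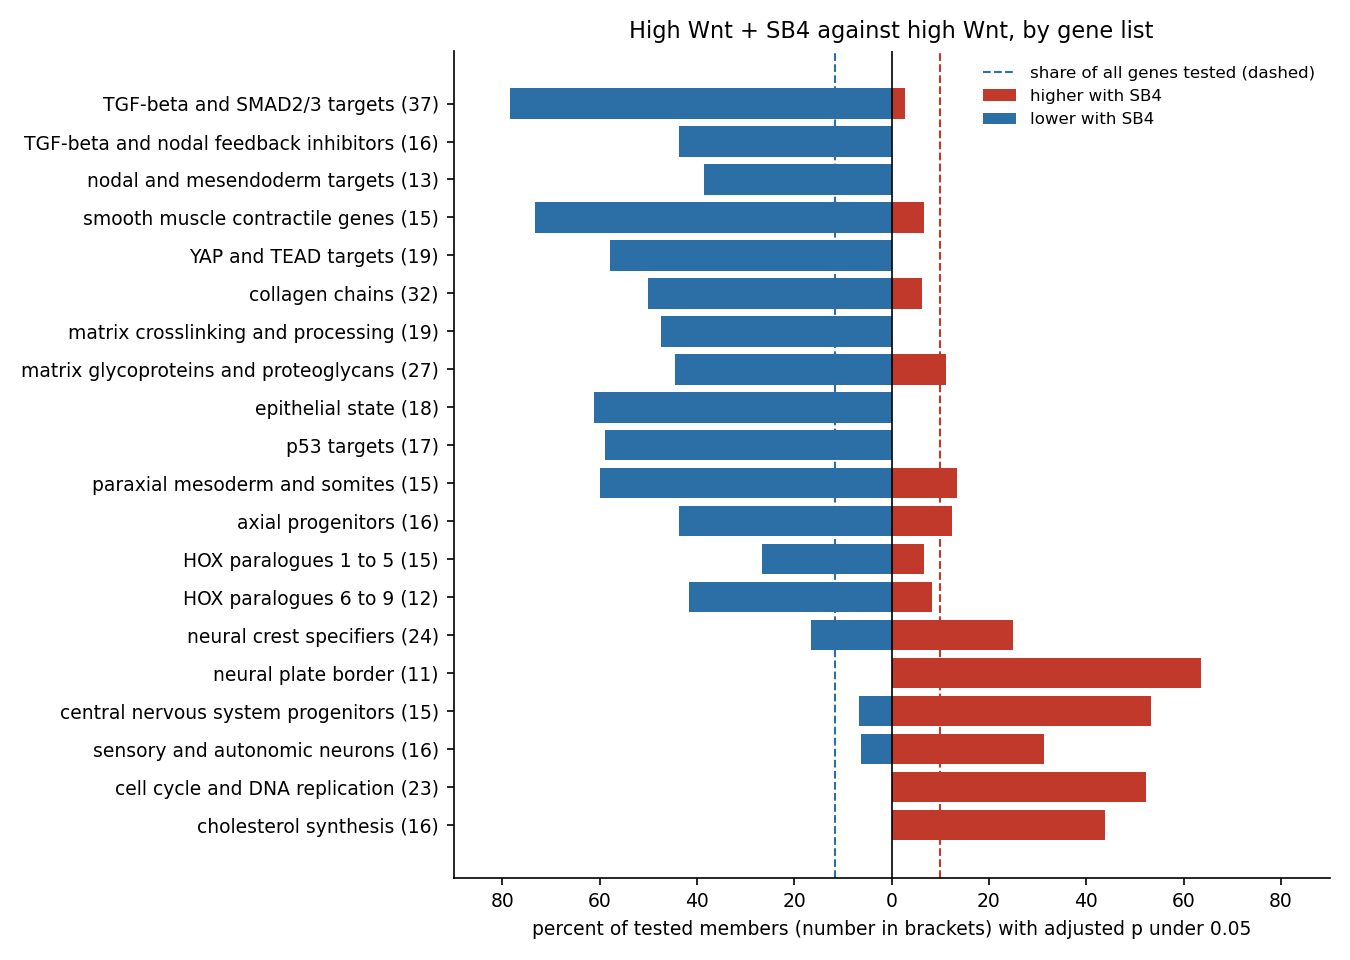
Percentage of tested members of 20 gene lists that fell (blue bars to the left) or rose (red bars to the right) in high Wnt + SB4 relative to high Wnt, with dashed lines at the percentages over all genes tested, 11.6% lower and 9.94% higher. The bars of SMAD2 and SMAD3 targets and of smooth muscle contractile genes reach furthest to the left, and those of neural plate border and central nervous system progenitors furthest to the right.

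Contractile genes fell together. Of 15 tested smooth muscle genes 11 fell and 1 rose, with a median of -1.38. TAGLN (chr11:117199324-117204792), an actin-binding protein, had 85.3 and 115 CPM in high Wnt + SB4, against 876 and 777 CPM in high Wnt (-3.04 ± 0.18 SE, edgeR adjusted p = 8.31e-09). ACTA2 (chr10:88935074-88991390), the smooth muscle actin, had 55.3 and 56.6 CPM in high Wnt + SB4, against 228 and 189.7 CPM in high Wnt (-1.90 ± 0.12 SE, edgeR adjusted p = 1.33e-08). The groups were far apart in both genes. CNN1, encoding calponin, had 27.6 and 25.6 CPM in high Wnt + SB4, against 112 and 101 CPM in high Wnt (-2.01 ± 0.13 SE, edgeR adjusted p = 3.41e-08), and the myosin light chain MYL9 had 68.8 and 66.9 CPM in high Wnt + SB4, against 232 and 202 CPM in high Wnt (-1.68 ± 0.12 SE, edgeR adjusted p = 1.06e-07). TPM1 (-1.25 ± 0.11 SE), CALD1 (-1.11 ± 0.10 SE), LMOD1 (-2.43 ± 0.25 SE) and DES (-1.38 ± 0.26 SE) fell likewise. MYLK, the kinase of myosin light chains, rose (0.79 ± 0.14 SE, edgeR adjusted p = 0.000539).

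The actins of striated muscle had larger fold changes than that of smooth muscle, a difference between genes that was not tested. ACTC1 (chr15:34788096-34795726), the cardiac actin, had 11.4 and 10.1 CPM in high Wnt + SB4, against 201 and 141 CPM in high Wnt (-3.99 ± 0.22 SE, edgeR adjusted p = 6.38e-09). ACTA1 (chr1:229431246-229434096), the skeletal actin, had 9.21 and 8.805 CPM in high Wnt + SB4, against 143 and 96.3 CPM in high Wnt (-3.73 ± 0.19 SE, edgeR adjusted p = 1.63e-09). That the groups did not overlap in either gene was a condition of their ranking above. JPH2, which joins the cell membrane to the calcium store of muscle, had 0.572 and 1.003 CPM in high Wnt + SB4, against 16.95 and 14.8 CPM in high Wnt (-4.30 ± 0.26 SE, edgeR adjusted p = 9.82e-09). Per length, ACTA2 had 78.8 and 83.9 TPM in high Wnt + SB4, against 311 and 275 TPM in high Wnt, and ACTC1 had 8.17 and 7.496 TPM in high Wnt + SB4, against 138 and 102 TPM in high Wnt. ACTA2 was thus more abundant per length than ACTC1 in all 4 libraries.

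The promoters of both striated actins and of CTGF, a gene of the group described next, are shown because they hold the motifs by which these genes are usually regulated. Each is the 200 bases that precede the RefSeq transcription start (GRCh38.p14), written 5′ to 3′ on the strand of the gene, all 3 on the minus strand. Capitals mark a CArG box, bound by the serum response factor SRF, in ACTC1 (chr15:34795550-34795749) and ACTA1 (chr1:229434095-229434294), and the reverse complement of CATTCC, bound by TEAD factors, in CTGF (named CCN2 in RefSeq, chr6:131951373-131951572).
ACTC1: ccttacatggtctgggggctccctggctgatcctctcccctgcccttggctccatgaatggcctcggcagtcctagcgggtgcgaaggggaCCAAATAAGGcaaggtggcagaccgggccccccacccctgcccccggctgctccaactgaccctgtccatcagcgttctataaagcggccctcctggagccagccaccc
ACTA1: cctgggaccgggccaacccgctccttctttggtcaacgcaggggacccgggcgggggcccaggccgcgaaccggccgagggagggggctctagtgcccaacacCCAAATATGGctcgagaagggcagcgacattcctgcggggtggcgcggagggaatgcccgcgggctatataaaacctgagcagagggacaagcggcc
CTGF: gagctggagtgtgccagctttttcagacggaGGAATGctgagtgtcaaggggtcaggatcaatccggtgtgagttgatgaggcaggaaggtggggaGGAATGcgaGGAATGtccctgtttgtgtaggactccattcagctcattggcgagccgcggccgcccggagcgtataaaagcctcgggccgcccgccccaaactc
The CArG box begins 109 bases before the start in ACTC1, for which 3 starts are listed and 1 is shown, and 97 bases before it in ACTA1. The CTGF promoter holds 3 copies of GGAATG, which begin 169, 104 and 95 bases before the start. CATTCC and GGAATG also stand in the ACTA1 sequence, where they are not marked. Searched on both strands, a CArG box stood in 1.29% and CATTCC in 14% of the 35116 windows of 300 bases listed by RefSeq, which run from 250 bases before to 50 bases after a start. The motifs and these promoters were chosen after the values were seen, and a match describes the letters of the window only. The SMAD motifs GTCTAGAC and CAGACA stood in 0.202% and 16.9% of all windows. Only 77% of the genes tested could be matched to a window, so a comparison of these shares between genes that fell and genes that rose was void.

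**Figure D3:**
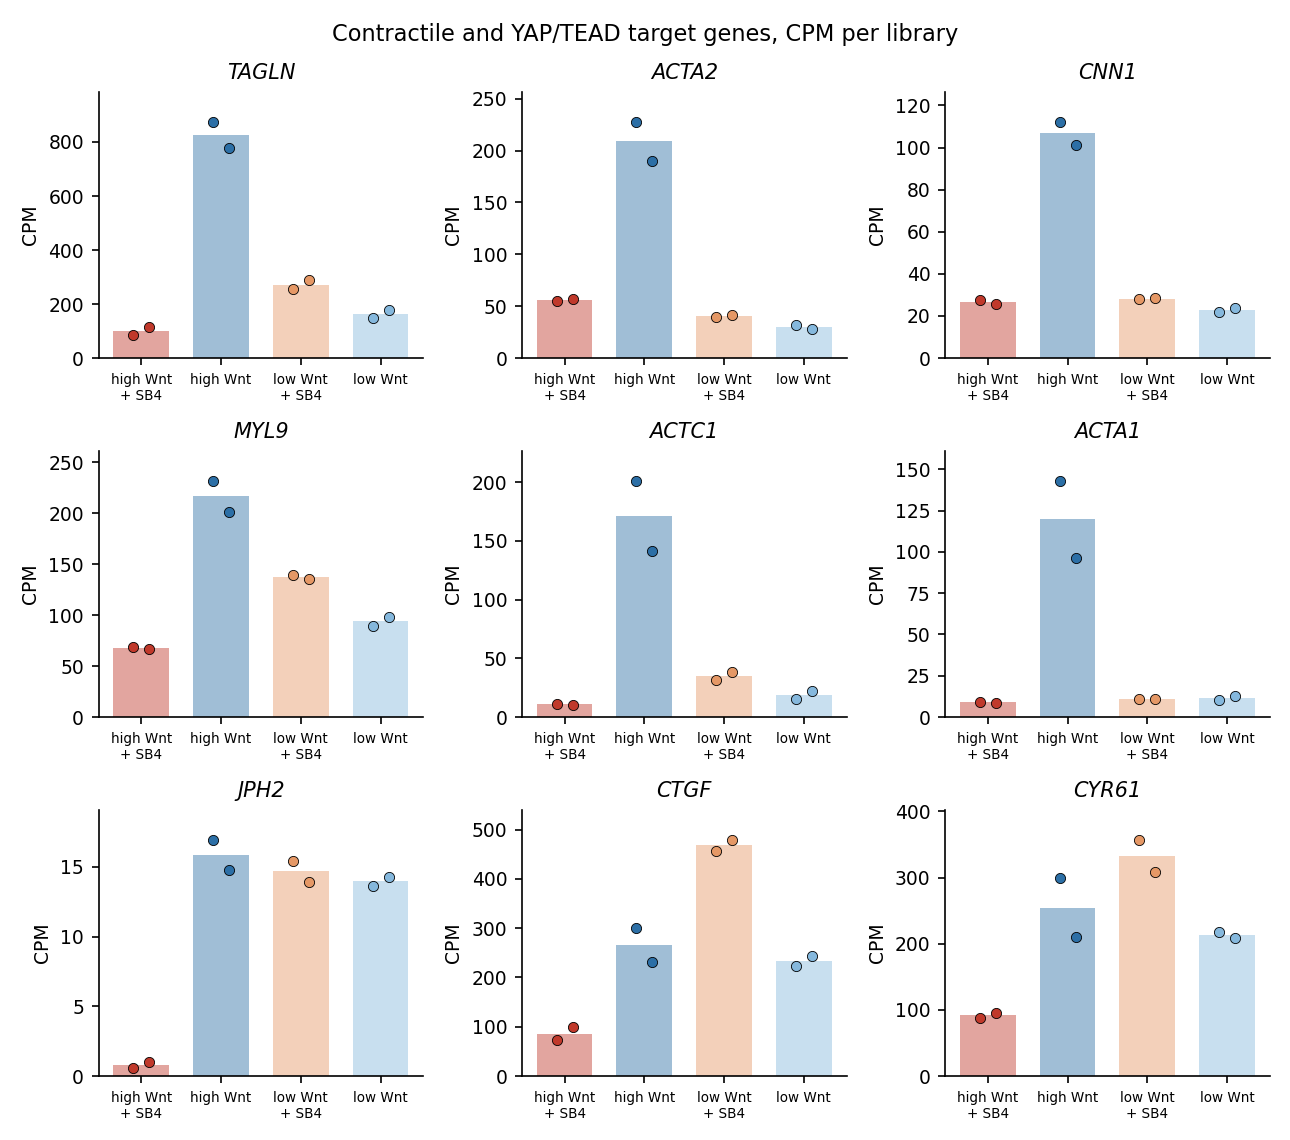
Level of 9 contractile, muscle and YAP target genes in CPM on linear axes from 0, in the order high Wnt + SB4, high Wnt, low Wnt + SB4 and low Wnt; bars are group means and points are libraries. At the high dose the libraries with SB4 lie below those without, and at the low dose those of TAGLN, ACTA2, MYL9, ACTC1, CTGF and CYR61 lie above.

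Genes switched on by YAP with TEAD factors, which report tension on the cytoskeleton, fell in 11 of 19 tested cases and rose in none (median -0.41). The falls numbered 7 without high Wnt replicate 1. CTGF had 72.8 and 99.1 CPM in high Wnt + SB4, against 301 and 232 CPM in high Wnt (-1.63 ± 0.14 SE, edgeR adjusted p = 8.65e-07). CYR61 had 88.1 and 95.7 CPM in high Wnt + SB4, against 299 and 211 CPM in high Wnt (-1.47 ± 0.15 SE, edgeR adjusted p = 4.94e-06). The groups did not overlap in either gene, both of which encode secreted matrix-bound proteins. ANKRD1 (-2.40 ± 0.26 SE), a nuclear protein of stretched muscle, and the receptor kinase AXL (-1.19 ± 0.10 SE) fell too. CTGF is also counted among the SMAD2 and SMAD3 targets, and which input moved it was not tested.

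Matrix genes fell more often than they rose. Of 32 collagen chains tested 16 fell and 2 rose (median -0.44). COL1A1 (chr17:50184096-50201639) had 79.6 and 84.9 CPM in high Wnt + SB4, against 514 and 506 CPM in high Wnt (-2.63 ± 0.10 SE, edgeR adjusted p = 7.96e-11), and COL1A2, the other chain of type I collagen, had 288 and 262 CPM in high Wnt + SB4, against 547 and 563 CPM in high Wnt (-1.01 ± 0.09 SE, edgeR adjusted p = 1.31e-06). The fold change was larger for COL1A1 than for COL1A2, and the groups were apart in both. COL5A3 (-2.81 ± 0.19 SE), COL7A1 (-1.44 ± 0.10 SE) and COL3A1 (-1.32 ± 0.17 SE) fell as well. The 2 chains that rose were COL9A1 (1.12 ± 0.13 SE), a chain of cartilage collagen, and COL14A1, with 61.96 and 85.5 CPM in high Wnt + SB4, against 38.6 and 46.7 CPM in high Wnt (0.79 ± 0.15 SE, edgeR adjusted p = 0.0012).

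Enzymes that crosslink or hydroxylate collagen fell in 9 of 19 tested cases and rose in none (median -0.36), among them LOX (-1.76 ± 0.19 SE), LOXL4 (-2.26 ± 0.29 SE) and P4HA2 (-1.36 ± 0.13 SE). Of 27 matrix glycoproteins and proteoglycans 12 fell and 3 rose (median -0.35), with the rises at 1 without high Wnt replicate 1. BGN, the small proteoglycan biglycan, had 46.8 and 45.7 CPM in high Wnt + SB4, against 164 and 148 CPM in high Wnt (-1.75 ± 0.10 SE, edgeR adjusted p = 7.3e-09). TNC, the tenascin of migrating crest and of wounds, was among the 3 that rose, with 197 and 209 CPM in high Wnt + SB4, against 116 and 110.0 CPM in high Wnt (0.85 ± 0.13 SE, edgeR adjusted p = 0.000188). Of 17 metalloproteinases and their inhibitors 6 fell and 1 rose, and TIMP3 (-0.61 ± 0.12 SE), which blocks metalloproteinases, was among the falls. The single rise was lost (0 without high Wnt replicate 1, high Wnt + SB4 replicate 1 or high Wnt + SB4 replicate 2). Of 16 integrins 5 fell (2 without high Wnt replicate 2 or high Wnt + SB4 replicate 1, and 3 without high Wnt + SB4 replicate 2) and 2 rose (0 to 1 on leaving out any 1 of the 4 libraries). PAPPA, a secreted protease of insulin-like growth factor binding proteins and 1 of the 12 largest falls ranked above, had 1.02 and 1.89 CPM in high Wnt + SB4, against 25.9 and 31.8 CPM in high Wnt (-4.28 ± 0.24 SE, edgeR adjusted p = 6.38e-09).

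Several genes known from vessel walls and from their growth factors fell. PDGFB, a ligand that recruits mural cells, had 1.27 and 2.56 CPM in high Wnt + SB4, against 28.8 and 22.7 CPM in high Wnt (-3.72 ± 0.31 SE, edgeR adjusted p = 4.45e-07). CSPG4, the NG2 proteoglycan of pericytes, had 8.01 and 7.63 CPM in high Wnt + SB4, against 46.04 and 41.3 CPM in high Wnt (-2.48 ± 0.15 SE, edgeR adjusted p = 1.33e-08). VCAM1, a cell adhesion molecule, was low and had 0.699 and 0.892 CPM in high Wnt + SB4, against 5.24 and 5.57 CPM in high Wnt (-2.74 ± 0.22 SE, edgeR adjusted p = 2.42e-07). The groups did not overlap in any of these 3 genes, which for PDGFB was a condition of its ranking above. PDGFRB fell by less (-1.13 ± 0.10 SE). Of the 16 tested markers of endothelium, blood and pericytes 5 fell and none rose, and the whole list summed to 142 and 136 CPM in high Wnt + SB4, against 243 and 237 CPM in high Wnt. Its defining endothelial markers were low, with CDH5 not among the genes tested and PECAM1 at 0.381 and 0.334 CPM in high Wnt + SB4, against 0 and 0.138 CPM in high Wnt. The cytokine IL32 had 2.61 and 3.23 CPM in high Wnt + SB4, against 41.97 and 38.04 CPM in high Wnt (-3.77 ± 0.31 SE, edgeR adjusted p = 3.18e-07). ETS1 (chr11:128458761-128587558), a transcription factor of endothelium and of crest, had 5.27 and 5.46 CPM in high Wnt + SB4, against 57.01 and 55.02 CPM in high Wnt (-3.38 ± 0.14 SE, edgeR adjusted p = 2.17e-10).

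The HOX genes of the most posterior paralogue groups that were detected fell steeply. HOXA10 (chr7:27170591-27180261) had 0 and 0.279 CPM in high Wnt + SB4, against 17.95 and 20.98 CPM in high Wnt, or 5 counts over both high Wnt + SB4 libraries against 521 over both high Wnt libraries (-6.96 ± 0.45 SE, edgeR adjusted p = 5.1e-08). HOXC10 (chr12:53985162-53990278) had 1.46 and 1.003 CPM in high Wnt + SB4, against 14.4 and 10.5 CPM in high Wnt (-3.33 ± 0.39 SE, edgeR adjusted p = 2.64e-05). They were the 2 members tested of 12 in paralogue groups 10 to 13. Of the 12 genes of groups 6 to 9 5 fell and 1 rose (median -0.57). HOXD9 (chr2:176122685-176124917) had 0.381 and 0.0557 CPM in high Wnt + SB4, against 13.6 and 13.5 CPM in high Wnt (-5.97 ± 0.39 SE, edgeR adjusted p = 2.57e-08), and HOXA9 had 9.28 and 5.85 CPM in high Wnt + SB4, against 23.8 and 25.999 CPM in high Wnt (-1.72 ± 0.29 SE, edgeR adjusted p = 0.000713). HOXC9 fell by less, with 28.3 and 25.8 CPM in high Wnt + SB4, against 42.1 and 48.2 CPM in high Wnt (-0.74 ± 0.16 SE, edgeR adjusted p = 0.00337).

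In the HOXB cluster none of the tested genes fell. HOXB9, the neighbour of HOXB8, had 1639.8 and 1728 CPM in high Wnt + SB4, against 871 and 969 CPM in high Wnt, and both libraries with SB4 lay above both without (edgeR adjusted p = 0.0638, not passed). HOXB8 rose, with 122 and 154 CPM in high Wnt + SB4, against 72.8 and 92.2 CPM in high Wnt (0.74 ± 0.17 SE, edgeR adjusted p = 0.00564), a call lost without high Wnt replicate 1 or high Wnt + SB4 replicate 2 (edgeR adjusted p 0.0779 to 0.0904). Of the 15 genes of groups 1 to 5 4 fell and 1 rose (median -0.31), with the falls at 2 without high Wnt + SB4 replicate 1 and the rise at 0 without any 1 of the 4 libraries. HOXC4, HOXC5 and HOXC6 share exons, so their counts are uncertain.

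**Figure D4:**
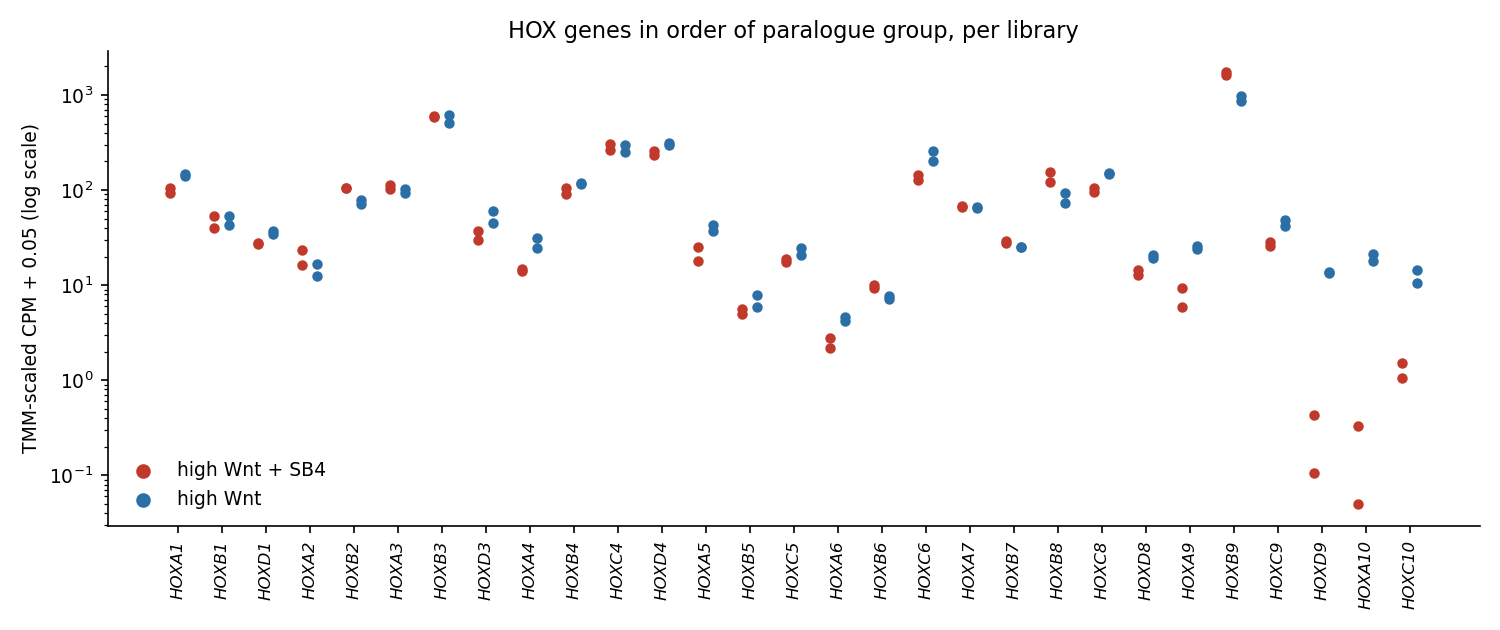
Level of 29 HOX genes, ordered by paralogue group, in each library of high Wnt + SB4 and of high Wnt, on a log axis of CPM with 0.05 added; points are libraries, red for high Wnt + SB4 and blue for high Wnt. The HOXA10, HOXC10 and HOXD9 points of high Wnt + SB4 lie far below those of high Wnt, and the HOXB8 and HOXB9 points of high Wnt + SB4 lie above.

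Of 16 axial progenitor genes tested 7 fell and 2 rose (median -0.47). The falls numbered 3 without high Wnt + SB4 replicate 2, and 4 without high Wnt replicate 1. CDX2, a homeobox gene upstream of posterior HOX genes, had 345 and 282 CPM in high Wnt + SB4, against 323 and 312 CPM in high Wnt (edgeR adjusted p = 0.953), with overlapping groups. T, which encodes brachyury, had 40.7 and 36.1 CPM in high Wnt + SB4, against 56.02 and 46.7 CPM in high Wnt (edgeR adjusted p = 0.0651), both libraries with SB4 lying below both without. Neither gene passed the test. FGF17, a growth factor of the tail bud, had 36.2 and 25.1 CPM in high Wnt + SB4, against 101 and 69.1 CPM in high Wnt (-1.48 ± 0.21 SE, edgeR adjusted p = 0.000104). WNT3A fell by less (-0.65 ± 0.15 SE), a call lost without high Wnt replicate 2 or high Wnt + SB4 replicate 1 (edgeR adjusted p 0.0665 to 0.0709). CRABP1, a retinoic acid carrier, rose (0.96 ± 0.15 SE).

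Genes of paraxial mesoderm and somites, the tissue that arises beside the neural tube from the same progenitors, fell in 9 of 15 tested cases and rose in 2 (median -0.99). The list summed to 202 and 171 CPM in high Wnt + SB4, against 331 and 273 CPM in high Wnt. TBX6 (chr16:30085794-30091884), which commits progenitors to paraxial mesoderm, had 6.16 and 6.13 CPM in high Wnt + SB4, against 25.3 and 17.5 CPM in high Wnt (-1.79 ± 0.20 SE, edgeR adjusted p = 1.17e-05). FOXC1, a forkhead gene of somites, had 24.7 and 21.7 CPM in high Wnt + SB4, against 49.04 and 43.2 CPM in high Wnt (-0.99 ± 0.15 SE, edgeR adjusted p = 0.000234). The groups did not overlap in either gene. TCF15 (-1.09 ± 0.20 SE), of the early somite, and DLL3 (-1.25 ± 0.16 SE), of the segmentation clock, fell, and MSGN1 fell (-2.04 ± 0.51 SE) with a call that was lost when any library was left out (edgeR adjusted p 0.0526 to 0.0799). The 2 that rose were RIPPLY1 (0.99 ± 0.22 SE) and MEOX2, with 3.88 and 3.901 CPM in high Wnt + SB4, against 0.665 and 0.344 CPM in high Wnt (2.96 ± 0.50 SE, edgeR adjusted p = 0.000451). MEOX1, an early somite gene, had 60.5 and 48.1 CPM in high Wnt + SB4, against 75.4 and 71.8 CPM in high Wnt (edgeR adjusted p = 0.0731). The muscle determination genes MYF5 and MYOD1 were not among the genes tested. These mesodermal genes fell together with the contractile and matrix genes above, and their part in those falls was not tested.

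Genes of neural progenitors rose. Of 15 tested genes of central nervous system progenitors 8 rose and 1 fell, with a median of 1.32. PAX6 (chr11:31784792-31817961), a homeobox gene of the ventricular zone of spinal cord and brain, had 70.03 and 87.6 CPM in high Wnt + SB4, against 5.98 and 6.67 CPM in high Wnt (3.63 ± 0.20 SE, edgeR adjusted p = 6.38e-09). OLIG3, of dorsal neural tube, had 2.16 and 3.57 CPM in high Wnt + SB4, against 0.166 and 0.481 CPM in high Wnt (3.07 ± 0.42 SE, edgeR adjusted p = 7.45e-05), and IRX3 had 74.98 and 74.3 CPM in high Wnt + SB4, against 26.7 and 33.2 CPM in high Wnt (1.32 ± 0.18 SE, edgeR adjusted p = 9e-05). The groups were apart in all 3 genes, though OLIG3 was near the floor in high Wnt. SOX1 (1.71 ± 0.30 SE), IRX5 (1.57 ± 0.24 SE) and SOX2, with 493 and 405 CPM in high Wnt + SB4, against 349 and 291 CPM in high Wnt (0.49 ± 0.12 SE), rose too. NES, which encodes the filament nestin, fell (-0.46 ± 0.12 SE). The calls of SOX2 (edgeR adjusted p 0.11 to 0.128) and NES (edgeR adjusted p 0.0749 to 0.113) were each lost without high Wnt replicate 2 or high Wnt + SB4 replicate 1. As NES and SOX2 carry most of the counts of the list, its sum was 1539.8 and 1616 CPM in high Wnt + SB4, against 1549 and 1631 CPM in high Wnt, with overlapping groups.

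The neural plate border list had 7 of 11 tested members higher and none lower (median 0.50), and 4 without high Wnt replicate 2 or high Wnt + SB4 replicate 2. PAX3, which marks dorsal neural tube and premigratory crest, rose (0.46 ± 0.11 SE, edgeR adjusted p = 0.00667). ZIC1 had 141 and 139.8 CPM in high Wnt + SB4, against 100.5 and 83.02 CPM in high Wnt (0.61 ± 0.17 SE, edgeR adjusted p = 0.0149), and ZIC2 rose as well (0.65 ± 0.13 SE). These changes were small beside that of PAX6. The call of PAX3 was lost without high Wnt replicate 2 (edgeR adjusted p = 0.0588), and that of ZIC1 without any library but high Wnt replicate 1 (edgeR adjusted p 0.076 to 0.148). MSX1 had 141 and 180.4 CPM in high Wnt + SB4, against 104 and 139 CPM in high Wnt (edgeR adjusted p = 0.242).

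Of 16 tested genes of sensory and autonomic neurons 5 rose (3 without high Wnt replicate 1) and 1 fell (0 without high Wnt replicate 1 or high Wnt + SB4 replicate 2). NTRK2, the receptor of brain-derived neurotrophic factor, had 25.5 and 37.9 CPM in high Wnt + SB4, against 6.65 and 5.71 CPM in high Wnt (2.37 ± 0.20 SE, edgeR adjusted p = 3.76e-07). NEUROG2, which drives neurons out of the cell cycle, had 42.7 and 57.8 CPM in high Wnt + SB4, against 11.97 and 15.5 CPM in high Wnt (1.87 ± 0.26 SE, edgeR adjusted p = 9.44e-05). Both genes were higher in both libraries with SB4, which for NTRK2 was a condition of its ranking above. NEUROD4, a later proneural gene, had 28 counts over both high Wnt + SB4 libraries and 0 in high Wnt, at least 7.36-fold higher against a floor of 3 counts over the group. The neuronal tubulin TUBB3 and doublecortin, DCX, did not pass.

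The other genes among the 12 largest rises have various known roles. PCDH8 (chr13:52843974-52848640), a protocadherin of neurons and of forming somites, had 110.1 and 120.5 CPM in high Wnt + SB4, against 7.48 and 8.53 CPM in high Wnt (3.84 ± 0.16 SE, edgeR adjusted p = 2.17e-10). GDF10, a secreted member of the TGF-beta superfamily, had 104 and 96.8 CPM in high Wnt + SB4, against 10.3 and 12.999 CPM in high Wnt (3.10 ± 0.20 SE, edgeR adjusted p = 1.75e-08). ONECUT2, a transcription factor of early neurons, had 69.8 and 115 CPM in high Wnt + SB4, against 7.98 and 14.2 CPM in high Wnt (3.05 ± 0.28 SE, edgeR adjusted p = 1.45e-06). In each of these genes the lower library with SB4 was several times above the higher library without. HES3, a repressor of neuronal differentiation in neural progenitors, had 14.7 and 11.1 CPM in high Wnt + SB4, against 2.33 and 2.13 CPM in high Wnt (2.53 ± 0.25 SE, edgeR adjusted p = 2.95e-06). ST8SIA3 (2.74 ± 0.21 SE), a sialyltransferase of brain, KLHDC8A (2.73 ± 0.16 SE), RHBDL3 (2.55 ± 0.24 SE), TRIL (2.44 ± 0.24 SE) and GPRIN1 (2.42 ± 0.20 SE) completed this set with MARCH4, a membrane-bound ubiquitin ligase with 15.2 and 15.5 CPM in high Wnt + SB4, against 2.83 and 1.17 CPM in high Wnt (2.97 ± 0.30 SE, edgeR adjusted p = 3.49e-06).

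Neural crest specifiers moved in both directions: of 24 tested 6 rose and 4 fell (median 0.12), beside 9.94% higher and 11.6% lower over all genes. The rises numbered 2 to 3 on leaving out any 1 of the 4 libraries, and the falls 2 without high Wnt + SB4 replicate 1 or high Wnt + SB4 replicate 2. The list summed to 2137 and 2189.6 CPM in high Wnt + SB4, against 1975 and 2198 CPM in high Wnt. SNAI1, a repressor of epithelial adhesion, had 6.16 and 5.46 CPM in high Wnt + SB4, against 26.4 and 16.03 CPM in high Wnt (-1.86 ± 0.28 SE, edgeR adjusted p = 0.000172). SNAI2 moved the other way, as given above. B3GAT1, which makes the HNK-1 epitope of migrating crest, had 44.5 and 44.7 CPM in high Wnt + SB4, against 20.2 and 22.6 CPM in high Wnt (1.06 ± 0.12 SE, edgeR adjusted p = 1.23e-05). SOX9 had 27.3 and 21.96 CPM in high Wnt + SB4, against 24.02 and 20.4 CPM in high Wnt, and the groups overlapped (edgeR adjusted p = 0.647). EDNRB, the endothelin receptor of crest and melanoblasts, fell, with 4.89 and 3.06 CPM in high Wnt + SB4, against 18.2 and 14.4 CPM in high Wnt (-2.04 ± 0.24 SE, edgeR adjusted p = 1.81e-05). Of the derivatives of crest, 1 of 7 tested melanocyte genes rose and 1 fell, 1 of 10 glial genes rose and none fell, and 1 of 11 genes of ectomesenchyme and pharyngeal arch rose and 1 fell. The melanocyte rise and the ectomesenchyme rise were lost without high Wnt replicate 2, and the ectomesenchyme fall on leaving out any 1 of the 4 libraries. None of 8 tested anterior head genes passed in either direction, with summed levels of 3.56 and 3.85 CPM in high Wnt + SB4, against 3.82 and 4.26 CPM in high Wnt.

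Genes of the epithelial state fell in 11 of 18 tested cases (6 without high Wnt replicate 1 or high Wnt + SB4 replicate 2) and rose in none. CLDN6, a claudin of embryonic epithelium, had 29.5 and 27.8 CPM in high Wnt + SB4, against 96.7 and 89.97 CPM in high Wnt (-1.70 ± 0.14 SE, edgeR adjusted p = 2.45e-07), and EPCAM fell (-1.49 ± 0.24 SE). CDH1, the epithelial cadherin, was near the floor, with 0.318 and 0.0557 CPM in high Wnt + SB4, against 0.499 and 0.413 CPM in high Wnt. CDH2, the cadherin of neural and mesenchymal cells, had 349 and 318 CPM in high Wnt + SB4, against 321 and 300.0 CPM in high Wnt, and its groups overlapped (edgeR adjusted p = 0.461). Of 14 genes of the mesenchymal state 6 fell (3 without high Wnt + SB4 replicate 2) and 2 rose (0 to 1 on leaving out any 1 of the 4 libraries). Keratins counted in the epithelial list, KRT8 (-0.78 ± 0.16 SE) and KRT18 (-0.80 ± 0.14 SE), also stand in the list of surface ectoderm, in which 5 of 11 fell (2 without high Wnt replicate 1 or high Wnt + SB4 replicate 2) and none rose. Of 13 endodermal genes 2 fell and none rose, and of 8 genes of lateral, intermediate and cardiac mesoderm 1 fell, TBX1 (-2.59 ± 0.41 SE), and none rose. Of 18 pluripotency genes 2 rose (0 without high Wnt replicate 2 or high Wnt + SB4 replicate 1, and 1 without high Wnt replicate 1) and 1 fell (0 without high Wnt replicate 1, high Wnt + SB4 replicate 1 or high Wnt + SB4 replicate 2).

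Genes of DNA replication rose and targets of p53 fell. Of 23 tested genes of the cell cycle and DNA replication 12 rose and none fell (median 0.57). MCM2, a subunit of the replicative helicase, had 405 and 396 CPM in high Wnt + SB4, against 218 and 218 CPM in high Wnt (0.88 ± 0.11 SE, edgeR adjusted p = 4.15e-05), and MCM4 (0.86 ± 0.10 SE), MCM5 (0.94 ± 0.12 SE) and the cyclin CCNE1 (0.80 ± 0.16 SE) rose too. The 12 genes were those of the helicase, of nucleotide supply and of the start of replication, and the genes of mitosis tested, among them MKI67, CCNB1, CDK1, AURKA and PLK1, did not pass. Of 17 p53 targets 10 fell and none rose (median -0.60). CDKN1A, the cell cycle inhibitor p21, had 52.2 and 59.3 CPM in high Wnt + SB4, against 154 and 139 CPM in high Wnt (-1.39 ± 0.21 SE, edgeR adjusted p = 0.000194), and ZMAT3 fell (-1.53 ± 0.14 SE). CDKN1A is induced by SMADs as well as by p53 and is counted in both lists. Cholesterol synthesis had 7 of 16 genes higher (4 without high Wnt replicate 2 or high Wnt + SB4 replicate 1) and none lower (median 0.38), among them IDI1 (0.77 ± 0.11 SE). Of 18 genes of glycolysis and hypoxia 5 fell (1 without high Wnt replicate 1 or high Wnt + SB4 replicate 2) and 3 rose, with HK2 (1.33 ± 0.19 SE) among the rises, and of 16 genes of the ATF4 and unfolded protein responses 5 fell and 1 rose.

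Readouts of other signals were mixed, and many of their counts moved by over 1.5 times on leaving out 1 library, as given in parentheses. Of 17 Wnt and beta-catenin targets 5 fell and 4 rose (2 without high Wnt + SB4 replicate 2). DKK1, a secreted Wnt antagonist, had 2.99 and 2.45 CPM in high Wnt + SB4, against 19.03 and 18.5 CPM in high Wnt (-2.79 ± 0.19 SE, edgeR adjusted p = 3.82e-08), and LEF1 fell by less (-0.63 ± 0.10 SE). AXIN2, the usual reporter of the pathway, had 45.6 and 49.8 CPM in high Wnt + SB4, against 48.7 and 42.6 CPM in high Wnt (edgeR adjusted p = 0.796). Of 22 genes of bone morphogenetic protein signaling 5 fell (2 to 3 on leaving out any 1 of the 4 libraries), BMP7 among them (-0.61 ± 0.10 SE), and 1 rose (0 without high Wnt replicate 1 or high Wnt + SB4 replicate 2, and 2 without high Wnt + SB4 replicate 1). The direct targets ID1 and ID3 did not pass. Of 20 Wnt ligands and modulators 5 fell (3 without high Wnt replicate 1 or high Wnt + SB4 replicate 2) and 3 rose (1 without high Wnt replicate 1 or high Wnt + SB4 replicate 2). Of 15 genes of ERK response 4 fell (2 without high Wnt replicate 2 or high Wnt + SB4 replicate 1) and none rose. Of 15 ligands and receptors of the FGF family 6 fell (3 without high Wnt replicate 1 or high Wnt + SB4 replicate 2) and 1 rose. FGF18 had 24.02 and 21.8 CPM in high Wnt + SB4, against 73.3 and 66.9 CPM in high Wnt (-1.61 ± 0.17 SE, edgeR adjusted p = 6.06e-06), and the receptor FGFR2 had 142 and 151 CPM in high Wnt + SB4, against 68.4 and 68.1 CPM in high Wnt (1.101 ± 0.09 SE, edgeR adjusted p = 4.66e-07). Of 19 Notch genes 6 fell (3 without high Wnt replicate 1) and 1 rose (0 without high Wnt replicate 1, high Wnt replicate 2 or high Wnt + SB4 replicate 1), with NOTCH1 at 143 and 162 CPM in high Wnt + SB4, against 289.6 and 275 CPM in high Wnt (-0.89 ± 0.13 SE, edgeR adjusted p = 0.000176). Of 17 genes of retinoic acid 5 fell (2 to 3 on leaving out any 1 of the 4 libraries) and 3 rose, and of 11 genes of the insulin-like growth factor axis 4 fell and 3 rose (1 without high Wnt replicate 1 or high Wnt + SB4 replicate 1).

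The same inhibitor was given at the low dose of CHIR99021, and the 2 comparisons share no library. At the low dose 782 genes rose (4.84%) and 1032 fell (6.39%) of 16149. The difference of the SB4 effects between doses was tested in the same fit: 438 genes (2.71%) had a more positive effect at the high dose and 543 (3.36%) a more negative one. For 109 genes SB4 moved the level in opposite directions at both doses with both effects and their difference past the threshold, 67 of them lower and 42 higher with SB4 at high Wnt. Leaving out any 1 of the 4 libraries compared gave 322 to 430 rises and 462 to 640 falls at the low dose. Leaving out any 1 of the 8 libraries gave 273 to 323 more positive effects, and 60 to 81 genes moved in opposite directions.

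The contractile genes held many of these differences. Of 15 tested, 9 had a more negative effect at the high dose and none a more positive one, and at the low dose 3 rose (0 without low Wnt replicate 1, and 1 without low Wnt + SB4 replicate 2) and 2 fell (1 without low Wnt replicate 1 or low Wnt + SB4 replicate 1), with a median of 0.23. TAGLN had 255 and 288 CPM in low Wnt + SB4, against 148 and 178 CPM in low Wnt, a rise (0.74 ± 0.17 SE, edgeR adjusted p = 0.00814), so that the effects at the high and low doses differed by -3.78 ± 0.24 SE (edgeR adjusted p = 8.17e-08). ACTA2 had 40.1 and 41.7 CPM in low Wnt + SB4, against 31.5 and 28.1 CPM in low Wnt (0.46 ± 0.12 SE, edgeR adjusted p = 0.0217), and its effects differed by -2.36 ± 0.17 SE. ACTC1 had 31.9 and 38.6 CPM in low Wnt + SB4, against 15.04 and 22.6 CPM in low Wnt (0.91 ± 0.21 SE, edgeR adjusted p = 0.00883), and its effects differed by -4.90 ± 0.30 SE. All 3 genes thus rose with SB4 at the low dose and fell at the high dose. At the low dose the call of TAGLN was lost without low Wnt replicate 1 or low Wnt + SB4 replicate 2 (edgeR adjusted p 0.0945 to 0.0952), as was that of ACTC1 (edgeR adjusted p 0.114 to 0.124), and that of ACTA2 on leaving out any 1 of the 4 libraries (edgeR adjusted p 0.0506 to 0.19). ACTA1 and JPH2 did not pass at the low dose. ACTA1 had 10.8 and 10.6 CPM in low Wnt + SB4, against 10.6 and 12.6 CPM in low Wnt, and JPH2 had 15.4 and 13.9 CPM in low Wnt + SB4, against 13.6 and 14.3 CPM in low Wnt. For JPH2 the low Wnt libraries were close to the high Wnt libraries in level, and the fall with SB4 was seen at the high dose.

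CTGF and CYR61 followed the same course. CTGF had 457 and 479.8 CPM in low Wnt + SB4, against 223 and 243 CPM in low Wnt (1.01 ± 0.14 SE, edgeR adjusted p = 0.000149), and its effects differed by -2.64 ± 0.20 SE. CYR61 rose at the low dose as well (0.64 ± 0.15 SE), a call lost without low Wnt replicate 2 or low Wnt + SB4 replicate 1 (edgeR adjusted p 0.0712 to 0.0969), and its effects differed by -2.11 ± 0.21 SE. VCAM1 moved in opposite directions too. At the low dose it had 66.5 and 67.1 CPM in low Wnt + SB4, against 12.4 and 12.9 CPM in low Wnt (2.40 ± 0.13 SE, edgeR adjusted p = 8.36e-09), and the difference was -5.15 ± 0.25 SE (edgeR adjusted p = 6.74e-09). THBS1 had 39.6 and 81.1 CPM in low Wnt + SB4, against 16.02 and 43.3 CPM in low Wnt, with overlapping groups and no call (edgeR adjusted p = 0.129), and a difference of -4.33 ± 0.60 SE.

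The targets of the pathway itself fell at both doses, in different numbers. Of the 37 SMAD2 and SMAD3 targets 11 fell (5 to 7 on leaving out any 1 of the 4 libraries) and 4 rose (1 without low Wnt replicate 1 or low Wnt + SB4 replicate 2) at the low dose, and 12 had a more negative effect at the high dose and none a more positive one. COL1A1 had 102 and 85.8 CPM in low Wnt + SB4, against 254 and 269.8 CPM in low Wnt (-1.48 ± 0.10 SE), and its effects differed by -1.15 ± 0.14 SE (edgeR adjusted p = 4.58e-05). PMEPA1 fell at the low dose too, with 0.122 and 0.2096 CPM in low Wnt + SB4, against 2.497 and 2.27 CPM in low Wnt (-3.76 ± 0.46 SE), against -3.98 at the high dose, and the difference did not pass (edgeR adjusted p = 0.949). LEFTY2 was already low in low Wnt, with 1.77 and 1.05 CPM in low Wnt + SB4, against 2.25 and 2.81 CPM in low Wnt (edgeR adjusted p = 0.135), and its effects differed by -6.22 ± 0.52 SE. TGFB1 had 6.95 and 6.18 CPM in low Wnt + SB4, against 14.8 and 11.9 CPM in low Wnt (-1.03 ± 0.20 SE), a call lost without low Wnt + SB4 replicate 2 (edgeR adjusted p = 0.0564), and its effects differed by -1.55 ± 0.27 SE (edgeR adjusted p = 0.0018).

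Neural genes rose at both doses in part. Of 15 central nervous system progenitor genes 9 rose and 2 fell (0 to 1 on leaving out any 1 of the 4 libraries) at the low dose (median 1.07), beside 8 and 1 at the high dose. PAX6 had 150.3 and 121 CPM in low Wnt + SB4, against 54.1 and 49.99 CPM in low Wnt (1.38 ± 0.17 SE), and the rise was steeper at the high dose by 2.25 ± 0.26 SE (edgeR adjusted p = 3.88e-05). PCDH8 had 6.77 and 7.34 CPM in low Wnt + SB4, against 3.96 and 4.25 CPM in low Wnt (0.78 ± 0.19 SE), a call lost without any library but low Wnt + SB4 replicate 1 (edgeR adjusted p 0.0562 to 0.101), and its effects differed by 3.06 ± 0.25 SE. NTRK2 moved in opposite directions, with 280.5 and 291 CPM in low Wnt + SB4, against 565 and 574 CPM in low Wnt (-0.99 ± 0.14 SE) and a difference of 3.36 ± 0.24 SE. MARCH4 (-1.03 at the low dose) and IGFBPL1 (-1.97 at the low dose, 0.92 at the high dose), a secreted relative of the insulin-like growth factor binding proteins, also rose at the high and fell at the low dose. COL14A1 did so too (-0.99 at the low dose), and EDNRB did the reverse (1.16 at the low dose). At the low dose the call of MARCH4 was lost on leaving out any 1 of the 4 libraries (edgeR adjusted p 0.0991 to 0.264), and that of EDNRB without low Wnt replicate 1 (edgeR adjusted p = 0.111).

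Some differences came from falls at the low dose. OTX2, a homeobox gene of forebrain and midbrain, had 0.671 and 0.262 CPM in low Wnt + SB4, against 16.5 and 20.5 CPM in low Wnt, and 0.318 and 0.279 CPM in high Wnt + SB4 against 0.582 and 0.206 CPM in high Wnt. TDGF1, the co-receptor of nodal, had 0.427 and 0.262 CPM in low Wnt + SB4, against 10.05 and 17.4 CPM in low Wnt, and 0.318 and 0.669 CPM in high Wnt + SB4 against 0.332 and 0.206 CPM in high Wnt. Both genes were under 1 CPM at the high dose in each library. ESRG, a transcript of stem cells, had 5.91 and 6.76 CPM in low Wnt + SB4, against 78.9 and 89.8 CPM in low Wnt, and NPTX1, a neuronal pentraxin, had 11.9 and 9.43 CPM in low Wnt + SB4, against 121 and 129 CPM in low Wnt. SP5, a direct target of Wnt signaling, had 0.06096 and 0.105 CPM in low Wnt + SB4, against 1.34 and 1.97 CPM in low Wnt, and 20.7 and 15.8 CPM in high Wnt + SB4 against 23.2 and 20.6 CPM in high Wnt, with overlapping groups at the high dose.

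**Figure D5:**
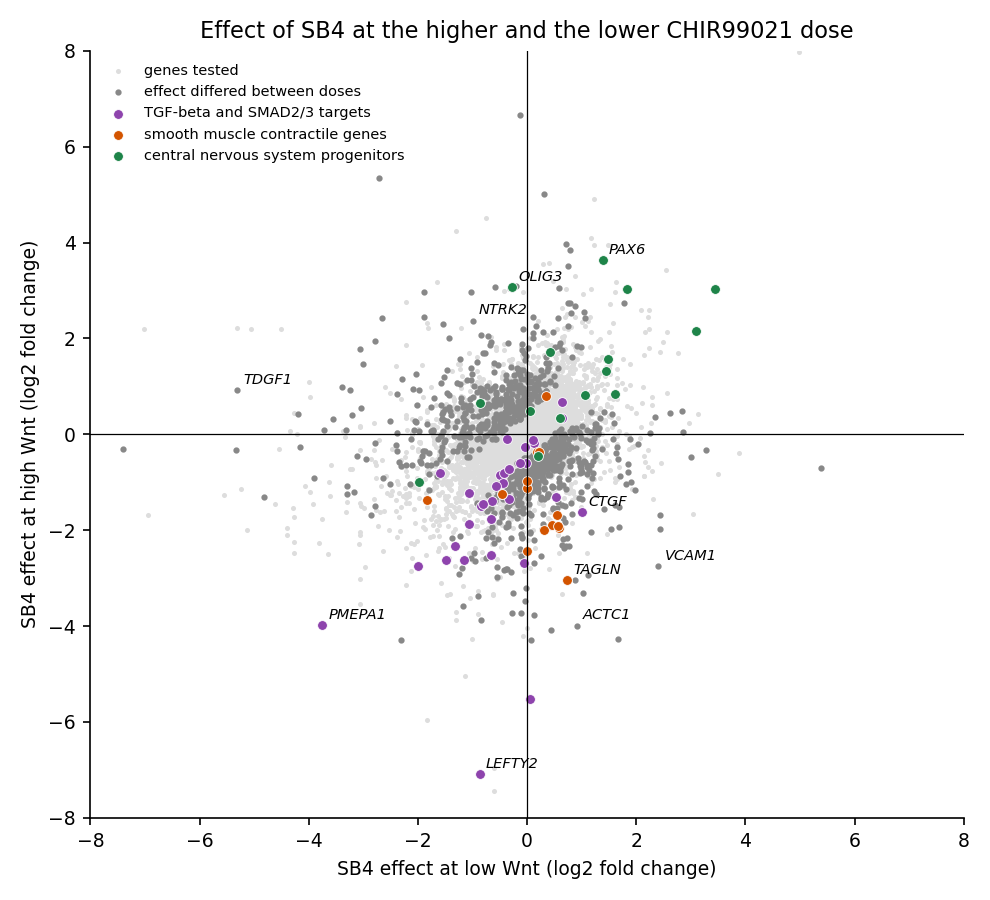
Log2 fold change of SB4 at high Wnt (vertical axis) against that at low Wnt (horizontal axis) for 14597 genes with at least 1 CPM in 1 of the 4 groups; the 966 genes whose effects differed between doses are dark grey, and members of 3 lists are coloured. TAGLN, ACTC1, CTGF and VCAM1 lie in the lower right, lower at the high dose and higher at the low dose, and NTRK2 lies in the upper left.

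Cultures given TGF-beta 1 at the high dose share their high Wnt libraries with the comparison above, so the values are only set side by side. In high Wnt + TGFB 606 genes rose (3.75%) and 564 fell (3.49%) relative to high Wnt, and 317 to 393 rose and 221 to 330 fell on leaving out any 1 of the 4 libraries. LEFTY2 had 1021 and 1123 CPM in high Wnt + TGFB (2.75 ± 0.16 SE, edgeR adjusted p = 6.86e-08), where high Wnt + SB4 had 1.53 and 0.836 CPM. COL1A2 had 1347 and 1219 CPM (1.21 ± 0.09 SE, edgeR adjusted p = 6.88e-07), and PMEPA1 had 7.796 and 10.7 CPM (1.67 ± 0.26 SE, edgeR adjusted p = 0.000642). These 3 genes rose with TGF-beta 1 and fell with SB4. Of the 37 tested SMAD2 and SMAD3 targets 10 rose and 3 fell with TGF-beta 1 (median 0.17), against 1 and 29 with SB4. Of the 15 contractile genes 2 rose and 1 fell with TGF-beta 1. TAGLN and COL1A1 fell with SB4 and did not pass with TGF-beta 1. TAGLN had 998 and 1081 CPM (edgeR adjusted p = 0.27), and COL1A1 had 606 and 609 CPM (edgeR adjusted p = 0.123). ACTA2 rose modestly, with 313 and 304 CPM (0.56 ± 0.11 SE, edgeR adjusted p = 0.00424), a call lost without high Wnt replicate 2 (edgeR adjusted p = 0.0744). Among posterior HOX genes HOXD9 had 48.8 and 59.3 CPM (1.998 ± 0.22 SE, edgeR adjusted p = 3.11e-05), and HOXA10 had 24.3 and 26.3 CPM (edgeR adjusted p = 0.457). PAX6 had 6.18 and 6.14 CPM and PCDH8 8.87 and 10.9 CPM, neither past the threshold. Of the 12 largest rises with SB4, NTRK2 (0.97 ± 0.21 SE, edgeR adjusted p = 0.0094) and TRIL (1.06 ± 0.25 SE, edgeR adjusted p = 0.0161) also rose with TGF-beta 1. ONECUT2 (-2.37 ± 0.38 SE) and HES3 (-2.90 ± 0.49 SE) fell, HES3 to near the floor. Outside those 12 genes, OLIG3 and SMAD1 rose with TGF-beta 1 as well as with SB4. Of the 15 central nervous system progenitor genes 1, OLIG3, rose with TGF-beta 1 and 5 fell. Genes that fell with SB4 and also with TGF-beta 1 included CDKN1A, NOTCH1, DES, EDNRB, COL7A1, ZMAT3 and NES. The calls with TGF-beta 1 of these genes and of NTRK2, TRIL, OLIG3 and SMAD1 were each lost on leaving out some single library. Of 17 p53 targets 7 fell and 1 rose with TGF-beta 1, and of 16 axial progenitor genes 7 fell and none rose. Of 32 collagen chains 11 rose and 1 fell.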

How the data were processed

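Messenger RNA of WA01-derived cultures was sequenced in 14 libraries, 2 in each of 7 groups. Per the labels' protocols, libraries were made from polyadenylated RNA (RNAqueous-micro isolation) with a directional NEBNext Ultra II kit. The authors deposited a single table of raw counts by gene. Per the submitters' processing notes, the tools were HISAT2 2.2.0, featureCounts 2.0.0, SAMtools 1.10 and bcl2fastq, whose version is not given in the sources used here, and the genome was hg38. Per the file headers, exons of the UCSC hg38 annotation were counted by gene as read pairs with reverse strandedness, and reads that mapped to several places or overlapped several genes were not counted. Gene coordinates are those of the deposited table.

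The analysis used edgeR 4.0.16 in R 4.3.3. The table held 26485 genes, 4943 of them at 0 in every library. A filter on low counts by filterByExpr, given the group, kept 16149 genes, which were scaled by TMM and tested by quasi-likelihood F-tests from 1 fit to the 14 libraries with a mean for each group, which left 7 residual degrees of freedom (common biological coefficient of variation 0.101). Adjustment was over all genes tested, with calls at an adjusted p under 0.05. Standard errors were computed from the log2 fold change and its F statistic. TPM was computed from the counts and the gene lengths of the table. The fit was tested on simulated data. The libraries summed to 10879287 to 19106827 counts. A value of 0 was taken to allow 3 counts, which covers counting error only. The spread between replicates exceeded sampling noise in both groups (8.48 in high Wnt + SB4 and 7.71 in high Wnt, as chi-square per degree of freedom), so none was taken for 1 library deposited again.

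Named genes were the 12 largest rises and falls where the higher group reached 10 CPM and groups did not overlap, the 6 largest differences between doses in each direction, members of 47 gene lists with the smallest p, and a panel of stem cell, crest, axial and pathway genes. Members and lists were chosen with earlier results of these data known. Alternatives were DESeq2 1.42.0, scaling by RLE or by library totals, no filter on low counts, fits of the compared groups or without hESC, a block for the replicate number, a cut at a log2 fold change of 1, and leaving out each library. Some genes named by this rule are not described. Promoter sequences are from RefSeq (GRCh38.p14), with 12432 of 16149 tested genes matched, 792 of them by an older symbol.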

Additional observations from a re-analysis of the deposited data

Results flagged for a closer look

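The effect of SB4 differed between the doses of CHIR99021 for 981 of 16149 genes by the edgeR quasi-likelihood test of the difference itself, with Benjamini-Hochberg adjustment over all genes. The genes below are those named in the text whose difference passed this test and was at least 2 on the log2 scale, or whose effects were called with opposite signs at both doses. Each value is the log2 fold change of SB4 at high Wnt minus that at low Wnt.

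Among nodal inhibitors the difference was -6.22 for LEFTY2 and -5.57 for LEFTY1. The LEFTY1 difference was lost without low Wnt + SB4 replicate 1 (edgeR adjusted p = 0.0744). Among muscle and contractile genes it was -4.90 for ACTC1, -4.37 for JPH2, -3.78 for TAGLN, -3.61 for ACTA1, -2.43 for LMOD1, -2.36 for ACTA2, -2.32 for CNN1 and -2.22 for MYL9. TAGLN, ACTA2, MYL9 and ACTC1 fell at high Wnt and rose at low Wnt. The calls at low Wnt were lost for MYL9 without low Wnt replicate 1 (edgeR adjusted p = 0.0807) and for the other 3 genes on leaving out the libraries given above. Among genes of the YAP and TEAD list it was -2.64 for CTGF, -2.27 for ANKRD1 and -2.11 for CYR61, and CTGF and CYR61 rose at low Wnt.

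Among genes of matrix, vessels and secreted signals the difference was -5.15 for VCAM1, -4.33 for THBS1, -3.89 for IL32, -3.45 for PDGFB, -3.21 for EDNRB, -2.63 for IGFBP3, -2.48 for ETS1 and -2.44 for COL5A3, and it was 1.78 for COL14A1 and 2.90 for IGFBPL1. VCAM1 and EDNRB fell at high Wnt and rose at low Wnt, and COL14A1 and IGFBPL1 did the reverse. IL32 was near the floor at the low dose, with 0.366 and 0.0524 CPM in low Wnt + SB4, against 0.183 and 0.179 CPM in low Wnt, and its difference was lost on leaving out any of 7 libraries, all but low Wnt + SB4 replicate 2 (edgeR adjusted p 0.0514 to 0.757).

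Among genes with the largest rises at high Wnt it was 3.99 for MARCH4, 3.36 for NTRK2, 3.30 for GDF10, 3.06 for PCDH8, 2.47 for ONECUT2, 2.34 for TRIL and 2.25 for PAX6. It was 3.34 for OLIG3, of the list of central nervous system progenitors. NTRK2 and MARCH4 rose at high Wnt and fell at low Wnt. NEUROD4 had no counts in high Wnt, so its fitted difference of 6.80 depends on the prior count, and the call was lost on leaving out any of the 8 libraries (edgeR adjusted p 0.0713 to 0.15).

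Differences that rested on falls at the low dose were 6.22 for TDGF1, 4.99 for OTX2, 3.91 for SP5, 3.86 for NPTX1, 3.81 for ESRG and 3.53 for CDH1. The SP5 difference was lost without either low Wnt + SB4 library (edgeR adjusted p 0.0527 to 0.056), and that of CDH1 was lost on leaving out any of 6 libraries, all but low Wnt replicate 1 and high Wnt + SB4 replicate 2 (edgeR adjusted p 0.0597 to 0.728). UNCX, a somite gene, had 0.244 and 0.419 CPM in low Wnt + SB4, against 0 and 0 CPM in low Wnt, so its fitted difference of -6.11 depends on the prior count. At the high dose UNCX had 8.896 and 6.52 CPM in high Wnt + SB4, against 14.2 and 11.1 CPM in high Wnt (-0.71 ± 0.24 SE, edgeR adjusted p = 0.0456), a call lost without high Wnt replicate 1 or high Wnt + SB4 replicate 2 (edgeR adjusted p 0.279 to 0.289), and the difference was lost without low Wnt + SB4 replicate 2 or either low Wnt library (edgeR adjusted p 0.0536 to 0.0789).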

How the results depend on the processing

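The 3476 genes called for SB4 at high Wnt ranged from 3232 to 4007 under DESeq2, scaling by RLE or by library totals, no filter on low counts, fits of the compared groups or without hESC, and a block for the replicate number. Asking for a log2 fold change of 1 or more left 962 of them, 576 of the 981 genes whose effect differed between doses, 711 of the 1814 genes called for SB4 at low Wnt, 428 of the 1170 called for TGFB at high Wnt, and 154 of the 340 calls summed over the lists. Leaving out 1 library at a time gave 1942 to 2424 genes for SB4 at high Wnt, 661 to 775 for the difference between doses, 784 to 1067 for SB4 at low Wnt, 538 to 714 for TGFB at high Wnt and 253 to 281 calls summed over the lists. These fits leave 1 library in a group, which is assumed to vary like the other groups, and the fewest genes for SB4 at high Wnt (1942) were left without high Wnt replicate 1.

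Replicate numbers 1 and 2 stand in every group, but the labels tie no number to a shared culture or day. Deviations of same-numbered libraries of high Wnt + SB4 and high Wnt correlated at 0.206 across genes, the highest value of any pair of groups. The other pairs lay between -0.116 and 0.135. With only 2 numbers to compare, a pairing could not be settled, and the numbers were taken as names. With the number as a block the counts were 3879 for SB4 at high Wnt, 1147 for the difference, 2101 for SB4 at low Wnt, 1418 for TGFB at high Wnt and 366 over the lists. In a fit of the 4 libraries alone the block gave 6620 genes, with 1 residual degree of freedom, and the cause was not tested.

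Of 136 named genes 9 of 1767 values for SB4 at high Wnt changed sign, all in genes that had not passed. CDX2 was 0.038 when scaled by library totals. On leaving out 1 library the log2 fold change ran from -0.00169 to 0.228 for ACVR1B, from -0.179 to 0.115 for CDX2, from -0.0206 to 0.299 for SOX9, from -0.17 to 0.33 for ESRG and from -0.0389 to 0.161 for AXIN2. The call was lost in 65 values, 35 of them under the cut on fold change and 27 on leaving out 1 library, these in 12 genes whose values stand beside them. SMAD2 also lost its call when scaled by library totals (edgeR adjusted p = 0.0661) or with no filter (edgeR adjusted p = 0.0695), and UNCX when scaled by library totals (edgeR adjusted p = 0.0622). HOXB9, T, MEOX1, MSX1 and FN1 passed under at least 1 alternative, in 20 values in all. For the difference between doses none of 1169 values in 78 genes changed sign, and 131 lost their call, 107 of them on leaving out 1 library and 17 under the cut on fold change. The other calls of a difference were lost for SOX1, LEF1, EPCAM and HK2 in the fit of the compared groups (edgeR adjusted p 0.0535 to 0.0816), for EPCAM under the replicate block (edgeR adjusted p = 0.0528), for LOXL4 by DESeq2 (adjusted p = 0.129) and for IL32 when scaled by library totals (edgeR adjusted p = 0.0515). Counts within single lists that moved by over 1.5 times on leaving out 1 library stand beside them or are named as such there. List counts with TGF-beta 1 were not taken on leaving out 1 library.

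With 2 libraries per group the precision is set by the number of libraries and by the spread shared across groups. Genes under the floor of 0.167 to 0.249 CPM cannot be told from 0.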

Other observations

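The libraries outside the comparison give the levels of its leading genes in uninduced WA01 cells (hESC) and with TGF-beta 1 at the low dose (low Wnt + TGFB). Contractile genes were detected before induction. TAGLN had 338 and 504 CPM and ACTC1 135 and 162 CPM in hESC, levels above those of high Wnt + SB4 in each library. ETS1 had 92.3 and 73.6 CPM in hESC and 31.7 and 34.3 CPM in low Wnt + TGFB. PAX6 and PCDH8 were near the floor in hESC, with 0.3701 and 0.594 CPM and 1.11 and 0.679 CPM, and HOXA10 had 0 counts there. VCAM1 had 0.925 and 0.8198 CPM in low Wnt + TGFB and 66.5 and 67.1 CPM in low Wnt + SB4, against 12.4 and 12.9 CPM in low Wnt, while at the high dose it had 13.8 and 15.2 CPM in high Wnt + TGFB and 0.699 and 0.892 CPM in high Wnt + SB4, against 5.24 and 5.57 CPM in high Wnt. LEFTY2 had 4.05 and 2.75 CPM in low Wnt + TGFB, where high Wnt + TGFB had 1021 and 1123 CPM. No comparison with these groups was tested here beyond those of the report.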
